A study of Arabidopsis thaliana with 6 samples.

Results

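Transcript levels of 10 genes of flavonoid and anthocyanin metabolism were followed in Arabidopsis thaliana shoots treated with β-estradiol, in a line built to express the transcription factor MYB112 when estradiol is given. The genes are DFR, AT4G14090 (UGT75C1), UF3GT, AT5MAT, CHIL, UGT78D1, UGT78D2, UGT78D3, AT1G06000 (UGT89C1) and AT1G23390 (KFB-CHS). Each was taken through the probe set that the platform annotation gives to it alone, which yielded 10 of the 22746 probe sets measured. The genes were chosen by pathway and on earlier results of these data, among them the levels and the estradiol minus DMSO differences reported here, so those values are given as a description without a test. The 10 probe sets all carry the plain suffix that Affymetrix gives to a set designed against a single target, as do 95.3% of all probe sets. With and without estradiol, the 4 late anthocyanin enzymes stayed at or near the lowest values of the arrays. CHIL, an early-step protein counted here with the enzymes, and the glycosyltransferases UGT78D1, UGT78D2 and UGT89C1 had values above a low-signal filter. These 4 differed by −0.39 to 0.34 on the log2 scale. KFB-CHS, which targets chalcone synthase for turnover, was lower with estradiol in all 3 pairs of arrays. So were 17.1% of probe sets above the filter.

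Samples were shoots of 2-week-old seedlings of the line MYB112-IOE (line 1, Col-0), which carries an estradiol-inducible MYB112 construct. The annotation used named 0 probe sets for MYB112 alone, so its induction was not checked on these arrays. They were grown on agar at 22 °C in continuous light and moved to shaken liquid medium 16 h before treatment. The groups were 10 µM β-estradiol for 3 h (1 array), DMSO for 3 h (1 array), 10 µM β-estradiol for 5 h (2 arrays) and DMSO for 5 h (2 arrays). All 6 samples carry the construct, a single line was used, and no label states the promoter of the construct, whether replicates came from separate flasks or how many seedlings were pooled. Plants treated with estradiol but lacking the construct were not analysed here, so effects of MYB112 and of estradiol itself cannot be told apart.

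Flavonoids are made from phenylpropanoid precursors by chalcone synthase and chalcone isomerase, the early steps that flavonols and anthocyanins share. Dihydroflavonol 4-reductase (DFR) then opens the late branch to anthocyanins, whose coloured core is decorated with sugar and acyl groups. Flavonols are decorated by glycosyltransferases that are in part shared with anthocyanins. MYB transcription factors control both branches, with flavonol regulators acting on early genes and complexes of MYB, bHLH and WD40 proteins acting on late genes. Chalcone synthase is also controlled as a protein, since the Kelch-repeat F-box protein KFB-CHS marks it for degradation.

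Values are log2 signals, and each estradiol array is set against the DMSO array of the same time and replicate number. The 3 pairs formed in this way differ in their lowest value, which was 2.1 at 3 h, 2.14 in replicate 1 at 5 h and 2.16 in replicate 2 of that time. Arrays correlated at 0.994 to 0.998 (Pearson, over probe sets) within pairs against 0.957 to 0.968 between pairs. Levels are therefore not compared between pairs. A probe set was taken as above the filter when 2 or more arrays gave at least 3.56, which is the 40th percentile over all values, and 14520 probe sets did so. Of the 10 members, 5 were above the filter and 5 below it. The lowest value of a member above the filter was 4.06, in CHIL, and the highest value of a member below it was 2.82, in UF3GT.

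As a check on the tissue, the photosynthetic genes RCA and LHCB4.1 had values of at least 12.72 on every array, while the root hair genes EXPA7 and EXPA18 did not exceed 2.96. The other 4 of 6 shoot markers and 4 of 6 root markers had no probe set named for them alone. Of the trichome and stomatal markers, 3 of 4 were named. MUTE was at 2.22 or less, SPCH differed by −0.04 at 3 h and by 0.03 and −1.29 in replicates 1 and 2 at 5 h, and FMA differed by 0.07, −0.38 and −1.17 in the same order. The SPCH and FMA differences of replicate 2 at 5 h stand beside the values of the members in that pair, and their part in those values was not tested. Bulk arrays do not separate fewer cells of a type from less RNA per cell.

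The late anthocyanin enzymes gave no signal above the filter with or without estradiol. DFR, the reductase at the entry to the branch, read 2.1 at 3 h and 2.22 and 2.16 at 5 h with estradiol, against 2.1 at 3 h and 2.14 and 2.16 at 5 h with DMSO. The single value of 2.22 was 0.08 above its DMSO partner, and the other 5 DFR values were the lowest value of their pair. AT4G14090 (UGT75C1), which adds a glucose to the 5 position of anthocyanins, was at the lowest value of its pair on all 6 arrays. AT5MAT, the malonyltransferase that acylates that glucose, was likewise at the lowest value on all 6 arrays. Of all 22746 probe sets, 15.8% lay at the lowest value on all 6 arrays and 36.2% were below the filter.

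UF3GT (UGT79B1), which extends the sugar at the 3 position of anthocyanins, was the late enzyme with every value above the lowest value of its pair. It read 2.82 at 3 h and 2.52 and 2.79 at 5 h with estradiol, against 2.82 at 3 h and 2.52 and 2.44 at 5 h with DMSO. The estradiol and DMSO values were thus identical in the first 2 of these pairs and 0.35 apart in replicate 2 at 5 h, with every value below the filter. At such levels the absence of a difference shows only that none was detectable with these probe sets.

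**Figure D1:**
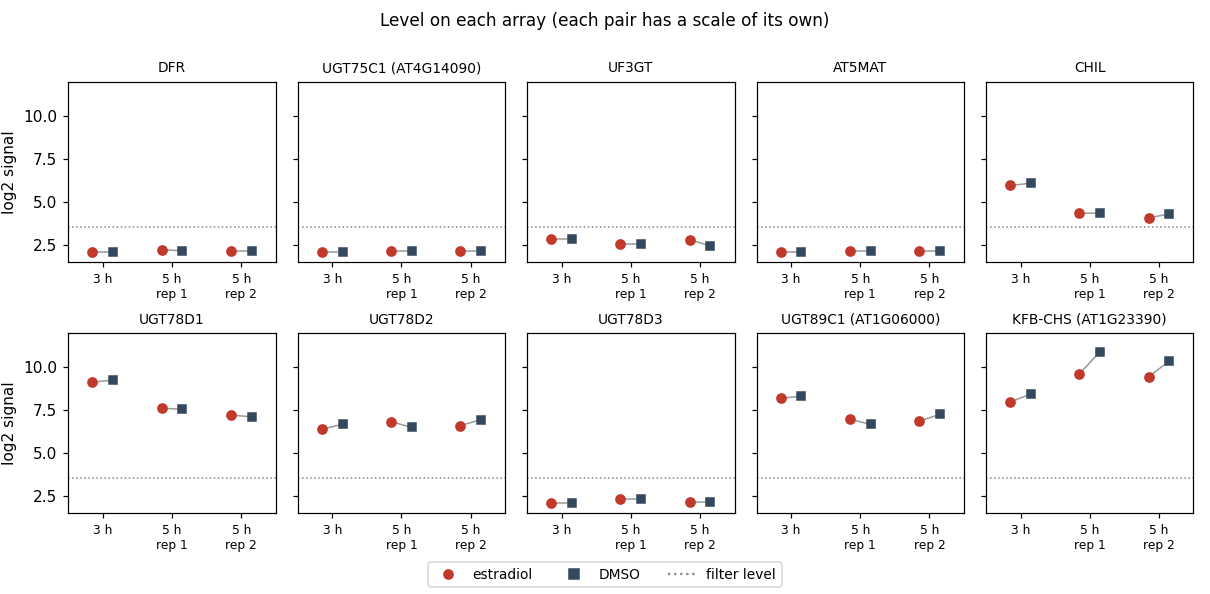
Log2 signal (vertical axis) of each of the 10 members on the 6 arrays, with the estradiol array (red circle) left of its DMSO partner (dark square) in each pair along the horizontal axis; the dotted line is the filter level of 3.56. The 4 late anthocyanin enzymes and UGT78D3 stay at 2.82 or less, and KFB-CHS lies lower with estradiol in every pair.

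CHIL was the single early-step gene among the members, and it is counted here with the enzymes. It encodes a chalcone isomerase-like protein without isomerase activity of its own that helps chalcone synthase to make the right product. CHIL read 5.95 with estradiol and 6.08 with DMSO at 3 h. At 5 h it read 4.33 and 4.06 with estradiol, against 4.34 and 4.29 with DMSO. The differences of −0.13, −0.01 and −0.23 averaged −0.12 (SD 0.11, n = 3 pairs), so CHIL was lower in all 3 pairs, by an amount about as large as its spread. Of all probe sets above the filter, 17.1% were lower in all 3 pairs and 12.1% higher in all 3.

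Early steps rest on this 1 gene, since 9 of the 14 genes on the early flavonoid and flavonol list have no probe set named for them alone. The response of late against early steps to estradiol could not be compared, because all 4 late enzymes were below the filter.

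The 3 UGT78D genes encode related glycosyltransferases that act on the 3 position of flavonols, and UGT78D2 also on that of anthocyanidins. UGT78D1, a flavonol 3-O-rhamnosyltransferase, read 9.14 with estradiol and 9.26 with DMSO at 3 h. At 5 h it read 7.62 and 7.21 with estradiol, against 7.56 and 7.13 with DMSO. Its differences of −0.12, 0.06 and 0.08 were small in each pair and averaged 0.01 (SD 0.11, n = 3 pairs). Of all probe sets above the filter, 9.16% were likewise lower at 3 h and higher in both 5 h pairs.

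UGT78D2, the 3-O-glucosyltransferase, read 6.40 with estradiol and 6.69 with DMSO at 3 h. At 5 h it read 6.84 and 6.6 with estradiol, against 6.50 and 6.96 with DMSO, so it was higher with estradiol in replicate 1 and lower in replicate 2. Its differences of −0.29, 0.34 and −0.36 had no common direction and averaged −0.10 (SD 0.39, n = 3 pairs).

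UGT78D3, a flavonol arabinosyltransferase, was below the filter at 2.1 at 3 h and 2.36 and 2.16 at 5 h with estradiol, and each DMSO value was the same as that of its estradiol partner. In the RefSeq annotation of TAIR10.1, UGT78D3 and UGT78D2 are separated by 1 gene, AT5G17040, also known as UGT78D4. Its probe set, looked up after the other values were seen, read between 2.16 and 2.39 on the 6 arrays. Within this cluster of neighbours, UGT78D2 was thus the gene with a signal above the filter.

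AT1G06000 (UGT89C1), which adds rhamnose to the 7 position of flavonols, read 8.20 with estradiol and 8.32 with DMSO at 3 h. At 5 h it read 6.98 and 6.87 with estradiol, against 6.68 and 7.26 with DMSO, again higher with estradiol in replicate 1 and lower in replicate 2. Its differences were −0.12, 0.30 and −0.39, with a mean of −0.07 (SD 0.35, n = 3 pairs). These have the signs of UGT78D2 in each pair, lower at 3 h, higher in replicate 1 at 5 h and lower in replicate 2 at 5 h. Of all probe sets above the filter, 12.2% have that sequence of signs.

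For the 4 enzymes above the filter, the median difference was −0.13 at 3 h, with all 4 lower, where 50.1% of probe sets were lower. It was 0.18 in replicate 1 at 5 h, with 3 of the 4 higher, where 47.7% of probe sets were higher. It was −0.29 in replicate 2 at 5 h, with 3 of the 4 lower, where 55.3% of probe sets were lower. The medians over all 14520 probe sets were −0.01, 0.00 and −0.04 in these pairs, with SDs over probe sets of 0.26, 0.33 and 0.41.

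The 4 mean differences ran between −0.12 and 0.01, and their median was −0.09 beside −0.02 for all probe sets above the filter. Among other genes of the UGT family, 24 of 44 probe sets with a UGT symbol were above the filter, and their mean differences ran between −0.71 and 1.41 with a median of −0.005.

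**Figure D2:**
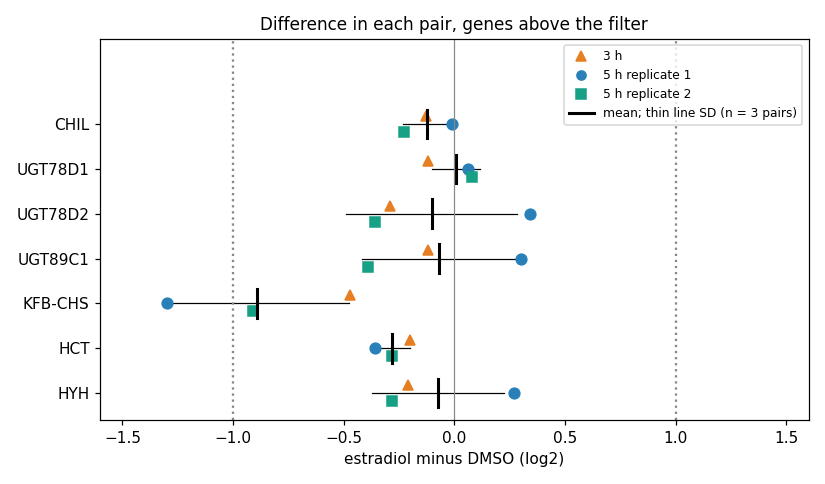
Estradiol minus DMSO on the log2 scale (horizontal axis) in each pair for the 5 members above the filter and for HCT and HYH; thick bars are means and thin lines the SD of 3 pairs, and dotted lines mark 2-fold. KFB-CHS and HCT lie below 0 in all 3 pairs, as does CHIL by small amounts, while UGT78D2, UGT89C1 and HYH lie on both sides of 0.

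AT1G23390 (KFB-CHS), the F-box protein of chalcone synthase turnover, had the largest difference of the 10 members, and it was named among them with its lower values already known. With estradiol it read 7.98 at 3 h and 9.62 and 9.45 at 5 h, against 8.45 at 3 h and 10.92 and 10.36 at 5 h with DMSO. Each estradiol array was below its DMSO partner, which held for 17.1% of probe sets above the filter. For KFB-CHS the gap was larger in both 5 h pairs than at 3 h. The differences were −0.47, −1.30 and −0.91, with a mean of −0.89 (SD 0.42, n = 3 pairs), and the geometric mean level with estradiol was 53.8% of that with DMSO.

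The difference of KFB-CHS passed 2-fold in 1 of the 3 pairs, replicate 1 at 5 h, and the other 4 members above the filter were less than 2-fold apart in every pair. In that pair 0.606% of probe sets were at least 2-fold lower and 0.944% at least 2-fold higher. The corresponding shares were 0.461% lower and 0.213% higher at 3 h, and 1.98% lower and 1.15% higher in replicate 2 at 5 h. Counted from the lowest difference among 14520 probe sets, KFB-CHS ranked 521st at 3 h, 34th in replicate 1 at 5 h and 346th in replicate 2 at 5 h. In all 3 pairs together, 13 other probe sets were as low as KFB-CHS or lower, 6 of them with a gene name. The mean of the 5 h pairs was −1.11 and the 3 h value −0.47, and the single 3 h pair gives no replicate error for that contrast.

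**Figure D3:**
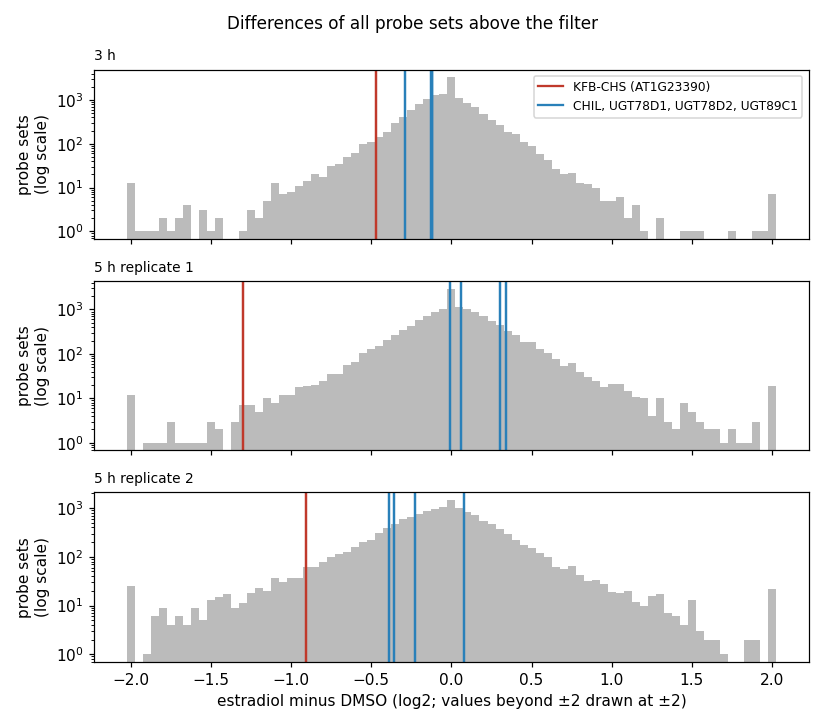
Number of probe sets above the filter (vertical axis, log scale) by estradiol minus DMSO on the log2 scale (horizontal axis), 1 panel per pair, with the members above the filter as vertical lines. The 4 enzymes (blue) lie between −0.39 and 0.34, and KFB-CHS (red) lies at −0.47, −1.30 and −0.91.

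The named genes whose 3 differences lay nearest to those of KFB-CHS, by Euclidean distance over the 3 pairs among 7886 named probe sets above the filter, were AT5G12050, AT5G13760, HAT2, AT3G19470 and PGM (AT1G78050). AT5G12050, at a distance of 0.18, differed by −0.44 at 3 h and by −1.17 and −1.03 in the 5 h pairs. Its levels were 9.93, 9.10 and 9.39 with estradiol, against 10.37, 10.27 and 10.42 with DMSO.

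AT5G13760, at a distance of 0.40, differed by −0.21, −1.0 and −0.84. HAT2, a homeobox transcription factor gene that auxin induces, at a distance of 0.41, differed by −0.64, −1.22 and −1.27. The distances of 0.42 for AT3G19470 and 0.44 for PGM, annotated as a phosphoglycerate mutase, were close behind. In each of these 5 genes both 5 h differences were larger in size than the 3 h one, as in KFB-CHS. That likeness largely follows from choosing them by nearness to KFB-CHS. Counting probe sets without a named gene, 13 lay within the distance of PGM. None of the 5 is on the flavonoid lists described next. Those lists had only 7 probe sets above the filter, KFB-CHS included, so that absence says nothing about the pathway. Likeness over 3 pairs is a description only.

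**Figure D4:**
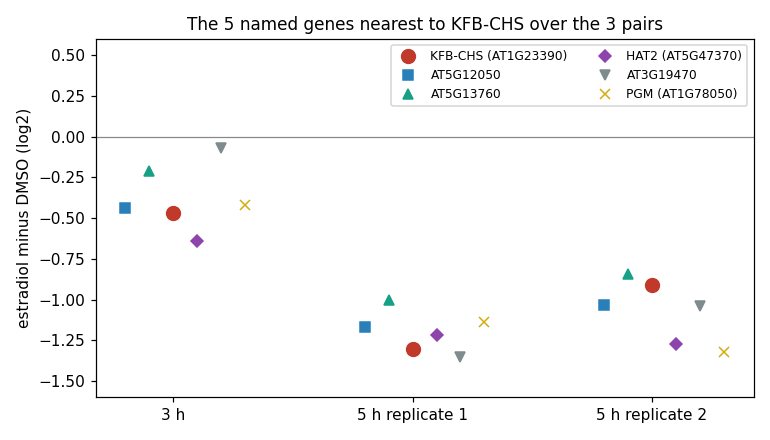
Estradiol minus DMSO on the log2 scale (vertical axis) in each of the 3 pairs (horizontal axis) for KFB-CHS (large red circles) and the 5 named genes nearest to it. All 6 genes are below 0 in every pair and lower in both 5 h pairs than at 3 h, which largely follows from the choice by nearness.

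Other genes of the pathway were looked up from 5 lists covering phenylpropanoid entry, early flavonoid and flavonol enzymes, late enzymes and transport, regulators, and Kelch F-box proteins of enzyme turnover. The lists hold 62 genes that are no member, of which 4 had a probe set named for them alone, and 2 of those were above the filter. Among these 2, limma with the pair as a block called 0 higher and 0 lower, as it did over all 14520 probe sets (0% called in either direction, smallest adjusted p = 0.119, 1415 at an unadjusted p under 0.05). At 5 h it called 0 of 14078 (0% in either direction, smallest adjusted p = 0.114, 1167 at an unadjusted p under 0.05).

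HCT, an acyltransferase that leads phenylpropanoid precursors towards lignin, read 9.52 at 3 h and 9.14 and 8.66 at 5 h with estradiol. With DMSO it read 9.72 at 3 h and 9.50 and 8.94 at 5 h. It was lower in 3 of 3 pairs, by 0.20, 0.36 and 0.28 in size, and the mean of −0.28 (SE 0.06) did not pass (limma adjusted p = 0.50). Being lower in all 3 pairs held for 17.1% of probe sets above the filter.

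HYH, a bZIP transcription factor of light signalling related to HY5, read 7.74 at 3 h and 7.19 and 6.06 at 5 h with estradiol, against 7.95 at 3 h and 6.92 and 6.34 at 5 h with DMSO. Its differences were −0.21, 0.27 and −0.28, with the signs of UGT78D2 and UGT89C1 in each pair. That sequence of signs held for 12.2% of probe sets above the filter. The HYH mean of −0.07 (SE 0.15) did not pass (limma adjusted p = 0.842). BAN (listed as ANR), the anthocyanidin reductase of proanthocyanidin synthesis, was at the lowest value of its pair on all 6 arrays. TRY, a small MYB repressor of trichome fate, was at 2.70 or less. Chalcone synthase, whose protein KFB-CHS targets, and the remaining genes of the lists are not described here because the annotation used names no probe set for them alone.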

How the data were processed

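Affymetrix ATH1 arrays, 1 colour and 1 sample each, measured total RNA of 6 shoot samples. The values as deposited by the authors are log2 signals, 1 for each probe set on each array. The submitters' processing notes name GCRMA and RMA but give no version or role for either. No source used here states the log base, which was read from the range, 2.1 to 15.35. Such values do not show signal over background, and precision is limited by the small number of arrays. No label says that replicates came from separate cultures, so p-values reflect only sample-to-sample spread, which may be technical.

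Of 22810 probe sets, 64 controls were left out. The platform annotation gave 13513 probe sets 1 gene and 503 several, and 8730 are unnamed here. Symbols were updated through gene numbers to RefSeq (TAIR10.1). Coordinates are left out, since no source used here names the build of the array annotation.

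Differences were estradiol minus DMSO within pairs of the same time and replicate number. Deviations from the treatment means correlated at 0.943, 0.923 and 0.906 within the 3 pairs, so the numbers were taken as pairing the samples. The treatment means were taken over both times, and each pair has a scale of its own. These correlations therefore cannot tell paired plants from arrays that only share a time or a scale. The tests used limma 3.58.1 in R 4.3.3 (lmFit, then eBayes with trend, two-sided, adjusted p under 0.05 by Benjamini-Hochberg) with the pair as a block, leaving 2 residual degrees of freedom for 3 pairs and 1 at 5 h. The script was tested on simulated data. Single pairs were described by a 2-fold threshold. Named genes were all members, every gene of the pathway lists with a probe set of its own, and the 5 named genes nearest to AT1G23390. Members, lists and rules were chosen with earlier results of these data known. Alternatives were quantile normalization, median centring, other filters, no trend, no block (with time kept as a factor over 3 pairs) and leaving out each pair.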

Additional observations from a re-analysis of the deposited data

Results flagged for a closer look

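Above the filter were 5 members, 2 other pathway genes, 2 shoot markers and 2 trichome or stomatal markers. Of these, UGT78D1, LHCB4.1 and FMA differed in opposite directions between the single 3 h pair and both 5 h pairs. Every difference of UGT78D1 and LHCB4.1, and that of FMA at 3 h, was smaller than the SD over probe sets of its pair. Those SDs were 0.26 at 3 h and 0.33 and 0.41 in replicates 1 and 2 at 5 h. The difference between times was not tested, and it rests on 1 pair at 3 h. UGT78D1 was at 0.06 and 0.08 at 5 h and at −0.12 at 3 h, a mean shift of 0.19. Its signs were shared by 9.16% of all probe sets above the filter. The photosynthetic gene LHCB4.1 was at −0.01 and −0.31 at 5 h and at 0.04 at 3 h, a shift of −0.20. The stomatal gene FMA was at −0.38 and −1.17 at 5 h and at 0.07 at 3 h, a shift of −0.85. The share of all probe sets with the signs of LHCB4.1 and FMA was not counted.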

How the results depend on the processing

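In the blocked limma fits 0 probe sets passed over 3 pairs and 0 at 5 h. Without the replicate block it called 1 in each, after quantile normalization 1 over 3 pairs and 3 at 5 h, with array medians subtracted 2 and 1, and with a filter at the 60th percentile 2 and 1. Without a filter or without the trend it called 0 in each, and leaving out each pair in turn gave 0 to 0 over 3 pairs; at 5 h this leaves 1 pair and no residual degrees of freedom, so it was not run. Without the block, the fit over 3 pairs kept time as a factor. Both fits without the block then have the 5 h pairs, which differ in scale, in their residual spread. The filters, the trend and the block leave a mean difference unchanged. Where all 3 pairs are negative, leaving out a pair cannot turn the sign. The mean of KFB-CHS was −0.87 both after quantile normalization and with medians subtracted, and between −1.11 and −0.69 when a pair was left out. For HCT it was −0.25 after quantile normalization and −0.26 with medians subtracted, and between −0.32 and −0.24 when a pair was left out. HYH turned to 0.03 without replicate 2 of 5 h. Left-out pairs moved UGT78D1 between −0.03 and 0.07, with the negative means of −0.02 and −0.03 without replicate 1 or 2 of 5 h. UGT78D2 lay between −0.33 and 0.03 and UGT89C1 between −0.26 and 0.09, both positive without replicate 2 of 5 h, while CHIL stayed between −0.18 and −0.07. In single pairs, quantile normalization and median centring turned no sign of the 5 members above the filter, HCT or HYH.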
